A study of Mus musculus with 25 samples.

Results

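The Schlafen family was followed as 7 mouse genes (Slfn1, Slfn2, Slfn3, Slfn4, Slfn5, Slfn8 and Slfn9) in RNA-seq libraries of activated macrophages. Members were taken by gene symbol, and all 7 were present among the 24411 genes of each table. The 21 primary libraries came from C57BL/6 bone marrow-derived macrophages (BMDMs), grown for 4 days with 25 ng/ml macrophage colony-stimulating factor. They formed 7 groups of 3: untreated cells cultured for 4 h, cells given IFN-γ (100 U/ml) with LPS (100 ng/ml) for 1, 4, 12 or 24 h, and cells given IL-4 (10 ng/ml) or IL-13 (10 ng/ml) for 12 h. RAW264.7, a macrophage-like line from an Abelson virus-induced leukemia of Balb/c mice, gave 4 libraries: 2 of untreated cells and 2 of cells given LPS alone (100 ng/ml) for 4 h. The labels give the hours for both agents together, while the study calls these cells IFN-γ primed, and how long IFN-γ was present before LPS is not given in the sources used here. The hours are therefore those of the labels, and an effect of earlier IFN-γ cannot be told apart from that of the stated hours. The single untreated BMDM group was sampled at 4 h, so time in culture also differed in the comparisons with the 1, 12 and 24 h groups and with both interleukins. The study describes the BMDM replicates as independent RNA samples. Nothing ties them to separate mice, and the RAW264.7 libraries are of 1 line.

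Schlafen proteins are found in mammals, are rich in immune cells, and fall into short, intermediate and long classes that share an N-terminal domain. The long members also carry a helicase-like region. Several of these genes are known targets of interferons and of Toll-like receptor signalling. Slfn1 and Slfn2 are short members; Slfn2 is known for its part in the quiescence and survival of T cells and monocytes, and Slfn1 for slowing thymocyte growth. Slfn3 and Slfn4 are intermediate members, and Slfn4 is known as a myeloid gene. Slfn5, Slfn8 and Slfn9 are long members.

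The 7 genes lie side by side on chromosome 11, from 82951349 to 83215154 (GRCm38/mm10, GENCODE M21), a span of 263.806 kb. Slfn8 and Slfn9 are on the minus strand and the other 5 on the plus strand. Their open reading frames follow the classes: 337 codons in Slfn1 and 378 in Slfn2, 602 in Slfn4 and 640 in Slfn3, and 884 in Slfn5 with 910 in both Slfn8 and Slfn9. The closest pairs over the aligned coding bases were Slfn8 with Slfn9 (92.71% identical) and Slfn3 with Slfn4 (92.11%), against 70.32% for Slfn1 with Slfn2. A read from such a pair could be split or lost where the copies match, since the counts used uniquely mapped reads. Of all 101-base words in each gene's transcripts, the share also found in another gene ran from 0% for Slfn1 to 3.639% for Slfn9 and 6.355% for Slfn5, whose shared words were mostly those of its antisense neighbour Slfn5os.

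RefSeq promoters (build GRCm38.p6, 250 bases before to 50 bases after the start) were at hand for all 7 members. Each was searched on both strands for 3 motifs of 9 letters, as background to the interferon and LPS stimuli: an interferon-stimulated response element core (AAANNGAAA), a gamma-activated site (TTCNNNGAA) and a kB site (GGNNTTTCC). The response element core was present in Slfn1, Slfn4, Slfn5, Slfn8 and Slfn9, and in 10.6% of 32851 promoters of the same length. The kB letters were present in Slfn2 and Slfn5, and in 5.82% of all promoters. The gamma-activated letters, present in 8.3% of all promoters, were in none of the 7, and Slfn3 held none of the 3 motifs in this window. Promoters are shown for Slfn2, the member with the highest level at 1 h, Slfn5, the only one with both motifs, and the near-identical pair Slfn8 and Slfn9. They run 5′ to 3′ on the gene's strand, with every matched base in capitals. In Slfn2 (chr11:83064862-83065161, plus strand) the capitals are a kB match. In Slfn5 (chr11:82951852-82952151, plus strand) they are a pair of response element matches that overlap each other, then a kB match. In Slfn8 (chr11:83020761-83021060, minus strand) and Slfn9 (chr11:82991781-82992080, minus strand) they are 1 response element match on the opposite strand. A match is a description of the letters and not evidence of binding.
Slfn2: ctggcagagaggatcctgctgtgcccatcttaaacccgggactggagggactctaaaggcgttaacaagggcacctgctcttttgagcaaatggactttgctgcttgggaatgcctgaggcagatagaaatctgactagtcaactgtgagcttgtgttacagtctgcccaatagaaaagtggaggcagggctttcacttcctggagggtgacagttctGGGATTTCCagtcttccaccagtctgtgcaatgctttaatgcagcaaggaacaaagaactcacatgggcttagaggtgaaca
Slfn5: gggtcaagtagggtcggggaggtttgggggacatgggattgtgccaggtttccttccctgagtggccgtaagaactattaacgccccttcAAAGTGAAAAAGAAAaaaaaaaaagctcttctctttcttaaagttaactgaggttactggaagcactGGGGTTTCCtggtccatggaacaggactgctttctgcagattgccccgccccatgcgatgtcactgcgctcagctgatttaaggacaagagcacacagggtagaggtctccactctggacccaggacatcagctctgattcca
Slfn8: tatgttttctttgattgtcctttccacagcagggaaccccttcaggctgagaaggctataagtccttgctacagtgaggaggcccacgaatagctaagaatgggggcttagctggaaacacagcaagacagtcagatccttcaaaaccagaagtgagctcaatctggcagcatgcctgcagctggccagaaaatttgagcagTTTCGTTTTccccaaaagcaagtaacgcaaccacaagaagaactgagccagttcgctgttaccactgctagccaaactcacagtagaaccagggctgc
Slfn9: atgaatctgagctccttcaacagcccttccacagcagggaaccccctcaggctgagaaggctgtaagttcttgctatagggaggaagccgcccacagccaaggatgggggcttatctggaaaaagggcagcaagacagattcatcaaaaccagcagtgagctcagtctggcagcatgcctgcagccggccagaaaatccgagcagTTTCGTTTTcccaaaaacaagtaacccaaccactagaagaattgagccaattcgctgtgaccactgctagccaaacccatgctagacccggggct

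Levels are given in CPM, a gene's sense-strand reads scaled so that all genes other than the ribosomal RNA gene Rn45s sum to the same total in every library. The libraries held 1502618 to 2532496 such reads without Rn45s, which itself took 20.1 to 39.8% of sense reads. Fold changes come from edgeR, which also scales for RNA composition (TMM), with p-values adjusted over all genes tested; a gene was called at an adjusted p of at most 0.01 and a log2 change of at least 1.5 where IFN-γ-LPS was involved, 0.7 for either interleukin and 2 in comparisons with RAW264.7. Without TMM, the median log2 change of all genes was -0.61 at 4 h, -0.34 at 12 h and -0.22 at 1 h and -0.20 at 24 h, so ratios of the plain CPM are smaller than the fitted changes. The 8 macrophage markers summed to 11229 to 30855 CPM in every library. Lyz2 alone was at 6774 to 23380 CPM, and Mertk had no read in 4 libraries. The B cell, T and NK cell, dendritic and erythroid lists summed to at most 6.09 CPM and the neutrophil list to at most 16.4. The fibroblast list summed to 46.8 to 116 CPM in the BMDM libraries and to 0 in the RAW264.7 libraries. Of Rn45s reads, 0.0386 to 0.122% were antisense in the 12 untreated, 1, 4 and 12 h libraries and 0.00603 to 0.0214% in the 9 of 24 h, IL-4 and IL-13, so this difference between libraries cannot be told apart from treatment where these 2 sets are compared. In bulk RNA, a change in the number of expressing cells and in RNA per cell cannot be told apart.

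Resting BMDMs expressed mainly Slfn2 and Slfn5. Slfn2 was at 109, 125 and 112 CPM in the 3 untreated libraries, and Slfn5 at 99.3, 114 and 104 CPM. Slfn8 (14.9, 14.9 and 20.4 CPM) and Slfn9 (13.1, 17.9 and 15.1 CPM) held 4.36 and 2.72% of the summed Schlafen level per kb, Slfn3 was at 2.38 to 5.96 CPM, and Slfn1 and Slfn4 were nearly silent, with 1 and 2 reads in all 3 libraries together. Per kb of exon, Slfn2 made up 73.7 ± 0.942% (SD, n = 3) of that sum and Slfn5 17.8 ± 0.0692%. The length was that of all exons annotated for a gene (GENCODE M21), 1664 bases for Slfn2 and 6326 for Slfn5. Which transcripts were expressed was not determined, so shares per kb depend on these lengths. The summed level was 94.2 ± 7.19 CPM per kb.

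**Figure D1:**
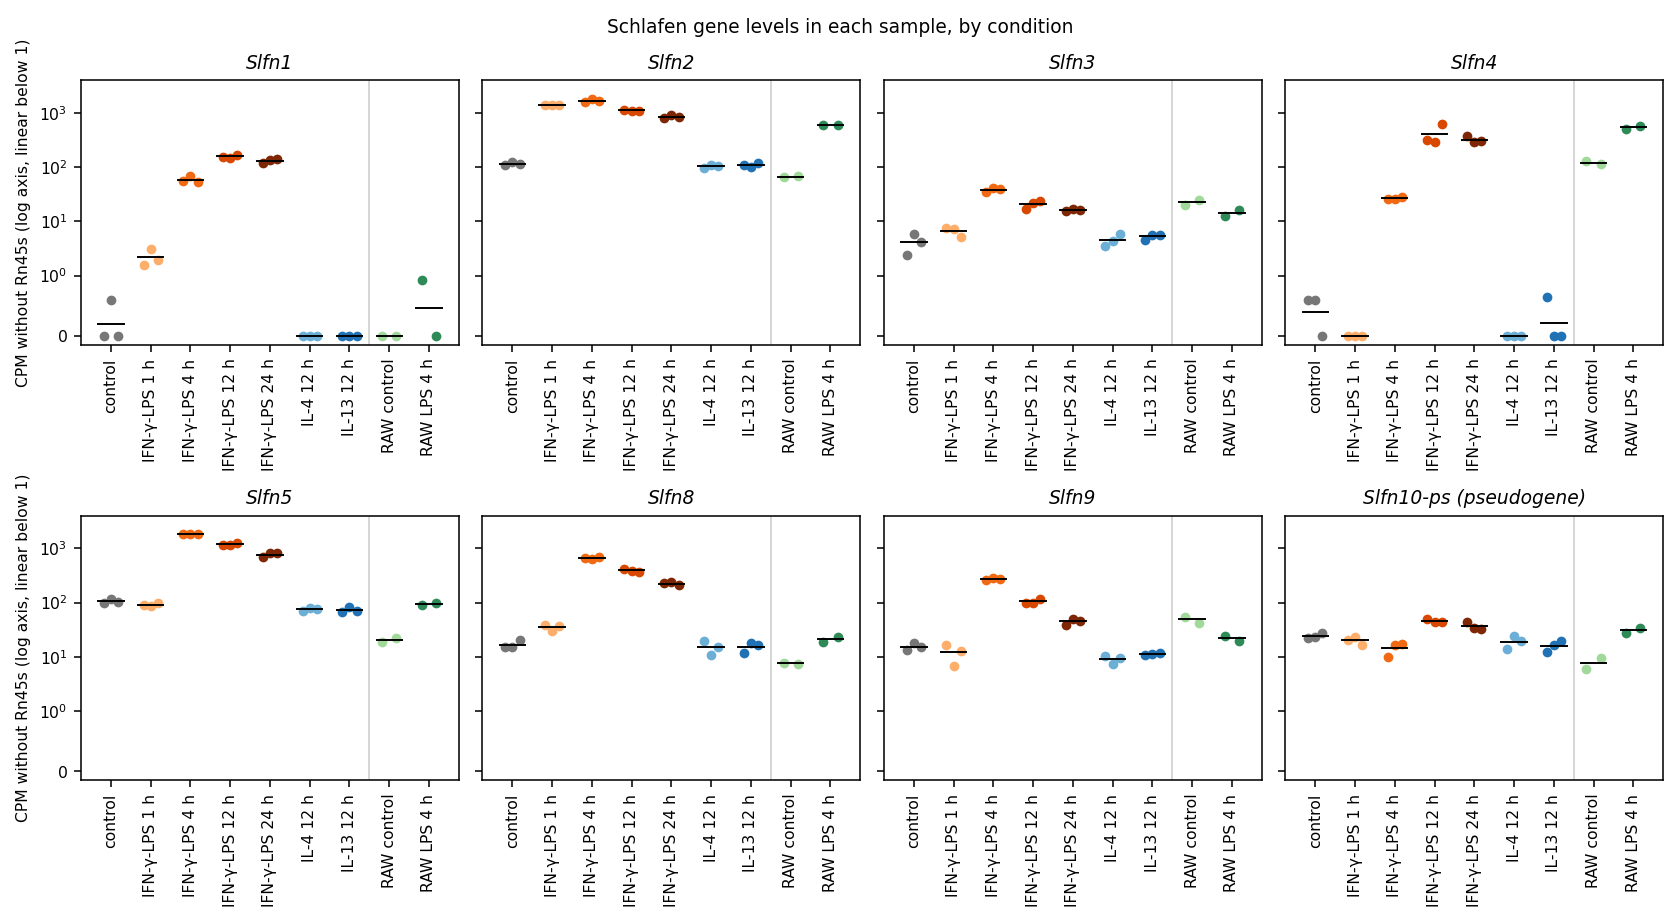
CPM of the 7 members and of the pseudogene Slfn10-ps in each of the 25 libraries, by condition, on a log axis that is linear below 1 CPM; points are samples and black lines group means. Slfn2 was high from 1 h, Slfn5, Slfn8 and Slfn9 were highest at 4 h, and Slfn1 and Slfn4 were highest at 12 h within the BMDM libraries.

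At 1 h of IFN-γ-LPS, Slfn2 was the only member called among the 5 with more than a few reads. It reached 1370, 1395 and 1415 CPM, with every library far above the highest control, and rose by 3.78 ± 0.10 on the log2 scale (SE; adjusted p = 1.6e-33, edgeR). It then made up 96.8 ± 0.237% (SD, n = 3) of the summed level per kb, the highest share of any gene in any condition. Slfn1, the other short member, had 12 reads over the 3 libraries against 1 in the controls, a ratio of 10.8 with an exact 95% counting interval of 1.60 to 462. It passed the test as well (adjusted p = 0.0048, edgeR), and that call was lost with DESeq2 (adjusted p = 0.0208) and when control replicate 1, control replicate 3 or 1 h replicate 2 was left out (adjusted p of 0.0280, 0.0276 and 0.0241). These were 2 of 7 members called higher, against 5.04% of the 9568 genes tested, and none was called lower, against 2.08%. Slfn1 and Slfn4 passed the filter on reads only through the later groups, where they were high. With only the control and 1 h groups fitted, 5 members were tested and 1 was called higher.

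The long members differed at 1 h. Slfn8 was at 38.3, 30.2 and 36.2 CPM, with no overlap with the controls, a log2 change of 1.25 ± 0.18 (SE; adjusted p = 7.4e-08, edgeR) that was below the size asked for. Slfn5 was at 89.3, 84.6 and 96.1 CPM (log2 change -0.04 ± 0.11) and Slfn9 at 16.5, 6.65 and 12.8 CPM (log2 change -0.14 ± 0.26), and neither was called. The sign of both small values turned when 1 library was left out. Slfn4 had no read in the 3 libraries at 1 h and 2 in the controls, so no fold was taken.

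At 4 h all 7 members were called higher, against 11.4% of genes tested. Slfn1 and Slfn4 passed the filter on reads only through groups where they were high. Against control or 1 h they could therefore not have been called lower. The other members, all called higher, had reads in every group. Slfn5 reached 1845, 1872 and 1869 CPM, far above every control, and rose by 4.66 ± 0.11 (log2, SE; adjusted p = 6.2e-37, edgeR). Slfn8 reached 652, 646 and 678 CPM and rose by 5.82 ± 0.13, and Slfn9 reached 259.5, 288 and 274 CPM and rose by 4.68 ± 0.16. For these 3 long members most of the change fell in the step from 1 to 4 h, in which they rose by 4.57 (Slfn8) to 4.82 (Slfn9) on the log2 scale. Slfn2 was at 1570, 1784 and 1676 CPM, and its further step of 0.61 ± 0.08 from 1 h (adjusted p = 3.4e-08, edgeR) was below the size asked for. It was the only member not called in that step, in which 6 of 7 were called higher against 7.07% of genes tested, and none lower against 6.95%. Slfn3 rose to 35.3, 40.6 and 39.1 CPM, a log2 change of 3.72 ± 0.26 against control.

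Slfn1 and Slfn4 were at 0 or nearly so before 4 h, so their ratios rest on few control reads. Slfn1 was at 54.6, 68.5 and 52.4 CPM at 4 h, a ratio to control of 299 with a counting interval of 53.2 to 11847. Slfn4 was at 25.3, 26.2 and 28.3 CPM, a ratio of 67.6 with an interval of 18.3 to 564, and at least 50.01-fold higher than at 1 h, taking 3 reads over the 1 h group as the limit. The intervals cover counting error only. Over the 5 members with more reads, the median log2 change at 4 h was 4.66, beside -0.07 over all genes tested.

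**Figure D2:**
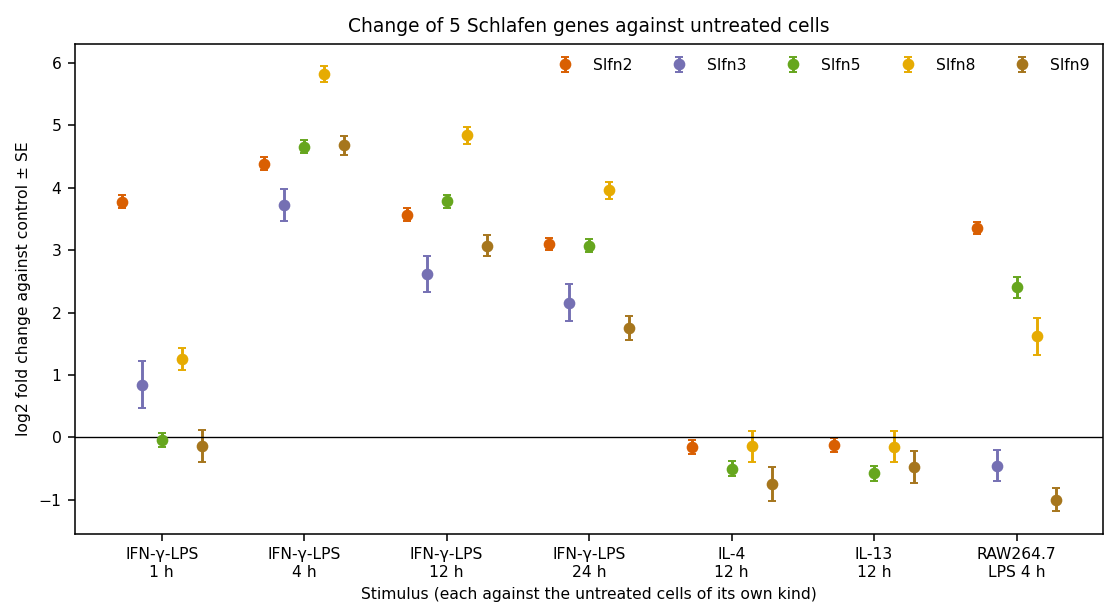
Log2 fold change against untreated cells of the same kind (edgeR; bars are SE) for the 5 members with more than 3 reads in every group, in 7 comparisons. At 1 h Slfn2 stood at 3.78, at 4 h all 5 lay between 3.72 and 5.82, and with IL-4 and IL-13 the tested members lay between -0.75 and -0.12.

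At 12 and 24 h all 7 members were still called higher than in untreated cells, against 8.87 and 7.93% of genes tested, and none was lower, against 8.42 and 6.93%. Slfn1 and Slfn4 could again not have been called lower. Levels of the members no longer moved together. Slfn5 was at 1147, 1156 and 1237 CPM at 12 h and at 682, 805 and 806 CPM at 24 h. Slfn8 was at 412, 385 and 372 CPM and then at 227, 238 and 207 CPM. Each of these groups lay wholly below the one before it. Slfn9 was at 98.1, 99.4 and 116 CPM at 12 h and at 38.1, 50.1 and 45.8 CPM at 24 h. From 4 to 12 h Slfn9 fell by 1.60 ± 0.12 on the log2 scale (adjusted p = 5.0e-16, edgeR) and was the 1 of 7 members called lower, against 4.45% of genes tested; without TMM the change was -1.39 and the call was lost. The changes of Slfn2, Slfn3, Slfn5 and Slfn8 over the same step lay between -1.11 and -0.82, with adjusted p of at most 2.2e-06, and were below the size asked for.

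Slfn1 and Slfn4 had their highest BMDM means at 12 h rather than 4 h. Slfn1 was at 157, 147 and 167 CPM at 12 h, a step of 1.20 ± 0.13 (log2, SE) from 4 h with adjusted p = 4.3e-11 that was below the size asked for, and at 121, 133 and 140.2 CPM at 24 h. Slfn4 went from 25.3 to 28.3 CPM at 4 h to 320.4, 287 and 637 CPM at 12 h, the 1 of 7 members called higher in that step, against 5.2% of genes tested. Its log2 change of 3.76 ± 0.40 (adjusted p = 5.1e-05, edgeR) was 3.27 without 12 h replicate 3, the library at 637 CPM. At 24 h Slfn4 was at 368, 289.7 and 298 CPM. Slfn3, whose coding bases are 92.11% identical to those of Slfn4, was at 16.9, 21.7 and 23.6 CPM at 12 h, below each of its 4 h libraries.

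From 12 to 24 h none of the 7 members was called in either direction by edgeR or DESeq2, against 0.418% of genes called higher and 0.867% called lower. Of the 7, 6 had an unadjusted p under 0.05 (edgeR), all toward a lower level. Over all genes, 3159 of the 9568 tested had such a p in either direction. Adjusted p was at most 0.01 for Slfn2 (-0.47), Slfn5 (-0.71), Slfn8 (-0.88) and Slfn9 (-1.31 on the log2 scale). Slfn4 changed by -0.48 ± 0.29 and by -0.0015 without 12 h replicate 3. Here the 2 sets of libraries with unlike antisense Rn45s shares are compared.

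The make-up of the family changed along the course. Slfn2 stayed the first gene per kb, with shares of 64.6 ± 1.11% (SD, n = 3) after 4 h, 57.5 ± 3.14% after 12 h and 60.0 ± 1.25% after 24 h. In plain CPM the mean of Slfn5 was above that of Slfn2 at 4 h (1862 against 1677) and 12 h (1180 against 1109). At 24 h the mean of Slfn5 was below it (764 against 848). Slfn1 went from 0.104 ± 0.181% in control to 8.33 ± 0.576% at 24 h, and Slfn4 from 0.106 ± 0.0923% to 9.52 ± 1.64%. The summed level was 865 ± 13.2 CPM per kb after 1 h and 1558 ± 72.9 after 4 h, followed by 1161 ± 55.8 after 12 h and 848 ± 37.9 after 24 h.

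**Figure D3:**
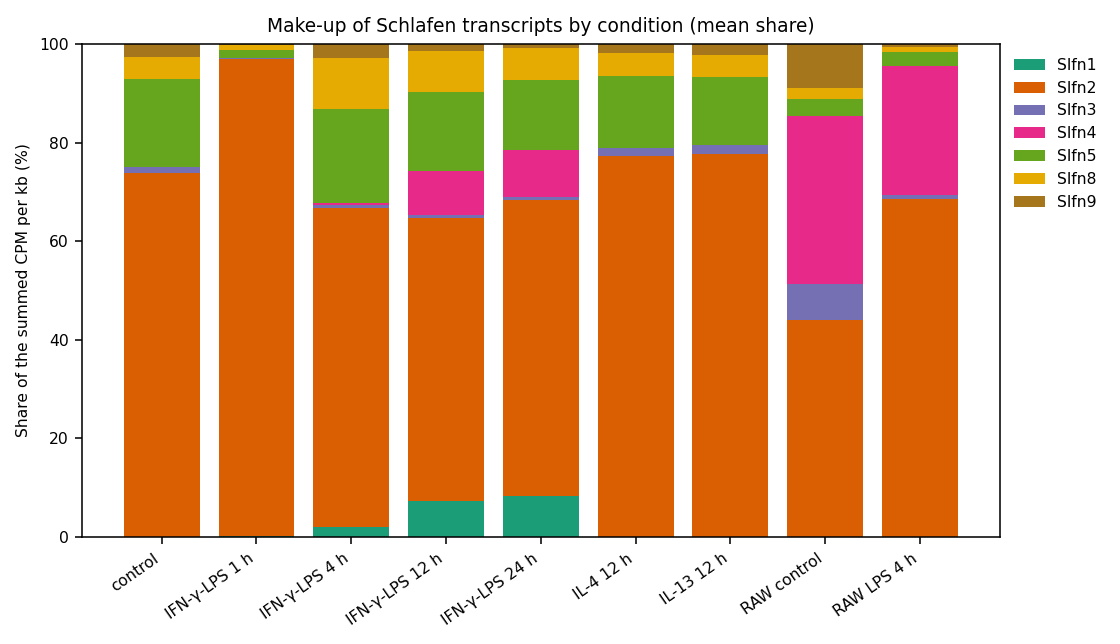
Mean share of each member in the summed Schlafen level (CPM per kb of exon, percent) in the 9 conditions. Slfn2 held 96.8% at 1 h of IFN-γ-LPS, Slfn1 and Slfn4 together took visible shares of BMDM transcripts at 12 and 24 h, and Slfn4 held 33.9% in untreated RAW264.7 cells.

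IL-4 and IL-13 drive alternative activation, and no member was called with either. Slfn2 was at 97.9, 109.7 and 106 CPM with IL-4 and at 108, 101 and 119 CPM with IL-13, overlapping the controls. Slfn5 was at 69.5, 78.0 and 77.5 CPM with IL-4 and at 67.4, 81.5 and 70.4 CPM with IL-13, every library below the lowest control at 99.3 CPM. Its log2 changes of -0.50 ± 0.12 (adjusted p = 0.0022, edgeR) and -0.57 ± 0.12 (adjusted p = 0.00030) were below the size asked for. Slfn9 was at 10.4, 7.32 and 9.60 CPM with IL-4 (log2 change -0.75 ± 0.27, adjusted p = 0.060, edgeR) and at 10.9, 11.4 and 11.8 CPM with IL-13 (-0.47 ± 0.26, adjusted p = 0.23). Slfn8 had log2 changes of -0.14 ± 0.25 and -0.15 ± 0.25, whose sign turned when 1 library was left out.

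Of the 4 members with enough reads to test, 0 were called with IL-4 by edgeR or DESeq2, against 2.22% of genes called higher and 1.64% called lower. An unadjusted p under 0.05 (edgeR) was found for 2 of them (Slfn5 and Slfn9), and for 2264 of all 9252 genes tested. With IL-13, 0 of 4 were called by either tool, against 2.98 and 2.38%. Here 1 had an unadjusted p under 0.05 (Slfn5), beside 2565 of the 9252 genes. Between IL-13 and IL-4, 0 of 4 were called by either tool, against 0.054 and 0.0108%, and 0 had an unadjusted p under 0.05, beside 643 of the 9252 genes. Slfn1 had no read with either interleukin, Slfn4 had none with IL-4 and 1 with IL-13, and Slfn3 was at 3.48 to 5.76 CPM with both. The IL-4 and IL-13 libraries differed from the controls in the antisense Rn45s share as well, and the part of this in the Slfn5 values was not tested.

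Side by side at 12 h, all 7 members were higher with IFN-γ-LPS than with IL-4 or with IL-13, against 8.58 and 8.59% of genes called higher and 7.46 and 7.44% called lower. Slfn1 and Slfn4, with at most 1 read in an interleukin group, could not have been called lower. The log2 difference from IL-4 was 5.02 ± 0.14 for Slfn8, 4.32 ± 0.11 for Slfn5, 3.86 ± 0.19 for Slfn9, 3.75 ± 0.10 for Slfn2 and 2.54 ± 0.29 for Slfn3 (edgeR, adjusted p of at most 5.2e-12). Against the empty IL-4 libraries, Slfn1 was at least 259-fold higher and Slfn4 at least 696-fold higher, taking 3 reads over the group as the limit. The 12 h IFN-γ-LPS group is shared by both comparisons, and the Slfn4 call against IL-4 was lost when only these 2 groups were fitted (adjusted p = 0.0209, edgeR).

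RAW264.7 cells began from another Schlafen make-up. Slfn4 was at 129 and 115 CPM in the untreated cells and Slfn2 at 64.7 and 67.9 CPM, while Slfn5 was at 18.8 and 22.0 CPM. Per kb, Slfn2 held 44.1 ± 2.14% and Slfn4 33.9 ± 2.22% (SD, n = 2). Against untreated BMDMs, Slfn4 had 525 reads to 2, a ratio of 309 with a counting interval of 85.1 to 2558, and was called higher. Slfn3, at 20.2 and 24.8 CPM, was called higher as well (log2 difference 2.17 ± 0.31, adjusted p = 4.3e-09, edgeR), and this call was lost without control replicate 1 (1.89, below the size asked for). Slfn5 was called lower (-2.62 ± 0.16, adjusted p = 7.1e-25). Thus 2 of 7 were called higher and 1 lower, against 9.67 and 13.3% of genes tested. Slfn1, with 0 and 1 reads in these groups, was among the 7 but could not have been called. Slfn4, with its 2 control reads, could not have been called lower. Slfn9 stood at 55.1 and 42.6 CPM, above every BMDM control (1.41 ± 0.21, adjusted p = 9.3e-09), and Slfn2 and Slfn8 at -1.05 ± 0.12 and -1.37 ± 0.27, all below the size asked for. Mouse strain and cell source differed together between these cells.

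LPS alone raised 3 of the 6 members tested in RAW264.7 cells, against 2.39% of genes tested, and none was called lower, against 0.829%. Slfn2 went to 609 and 586 CPM, a log2 change of 3.35 ± 0.10 (SE, n = 2 per group). Slfn5 went to 91.0 and 99.9 CPM, a log2 change of 2.40 ± 0.17, and Slfn4 to 511 and 569 CPM, a log2 change of 2.33 ± 0.09. Slfn8 was at 18.6 and 23.0 CPM against 7.80 and 7.49 CPM, a log2 change of 1.62 ± 0.29 (adjusted p = 2.9e-07, edgeR) that was below the size asked for. Slfn9 was lower in both LPS libraries, at 24.2 and 19.2 CPM (-0.998 ± 0.185, adjusted p = 6.3e-07), also below the size asked for, and Slfn3 was at 12.5 and 16.3 CPM (-0.45 ± 0.25, adjusted p = 0.14). With 2 libraries per group the spread was borrowed mostly from other genes; with all 25 samples in the fit, adjusted p was 6.9e-36 for Slfn2, 2.4e-20 for Slfn5 and 0.00013 for Slfn4. Slfn1 had no read in the control libraries and 2 in the LPS libraries.

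The difference between the changes at 4 h was tested directly, as the RAW264.7 change minus the BMDM change. The stimulus was LPS in RAW264.7 cells and IFN-γ with LPS in BMDMs, so stimulus and cells cannot be told apart. A smaller change in RAW264.7 cells was called for 4 of 7 members, against 4.88% of genes tested, and a larger change for none, against 3.38%: Slfn9 (-5.77 ± 0.26), Slfn8 (-4.30 ± 0.38), Slfn3 (-4.27 ± 0.37) and Slfn5 (-2.35 ± 0.22 on the log2 scale, edgeR, adjusted p of at most 3.9e-15). Without TMM the value for Slfn5 was -1.91 and was no longer called. Slfn2 differed by -1.13 ± 0.16 (adjusted p = 6.9e-09), below the size asked for. For Slfn4 the difference was -4.13 ± 1.47 (adjusted p = 0.047, edgeR), with a BMDM change that rests on 2 control reads, and DESeq2 called it (-4.34, adjusted p = 0.00040).

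Ordered over the 9 conditions by mean CPM, Slfn2, Slfn3, Slfn5, Slfn8 and Slfn9 were highest at 4 h of IFN-γ-LPS, and no library of the next condition reached that group. Slfn1 was highest at 12 h, with 24 h next and not overlapping. Slfn4 was highest in LPS-treated RAW264.7 cells (511 and 569 CPM), which overlapped the BMDM 12 h group through the library at 637 CPM. This order turned with TMM-scaled library sizes, where the mean of Slfn4 was 489 CPM at 12 h and 455 CPM in LPS-treated RAW264.7 cells. At the low end, the control, IL-4 and IL-13 groups of Slfn8 overlapped each other, with untreated RAW264.7 cells lowest. For Slfn5 the plain CPM of LPS-treated RAW264.7 cells overlapped those of the control group and of the 1 h group.

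The genes whose condition means were most like each member's were sought among 10554 non-member genes, over 9 conditions that share libraries and depth, as a description. For Slfn8 they were Parp14 (Pearson r of 0.995), Znfx1 (0.991) and Dtx3l (0.988). For Slfn5 they were Trim21, Trim30a and Znfx1 (0.986 to 0.987), and for Slfn9 Tshz1, Setdb2 and Pml (0.962 to 0.983). Slfn2 was most like Tnip1 (0.990), Il1a and Ifih1 (both 0.978), and Slfn1 most like Ifit1bl1, Fpr2 and Pydc4 (0.993 to 0.995). For Slfn3 they were Larp1, 2700060E02Rik and Mtdh (0.954 to 0.973), and for Slfn4 Psma6, Sepw1 and Pwp1 (0.960 to 0.983). Among members, Slfn5 and Slfn8 were the most alike pair (0.981) and Slfn2 and Slfn4 the least (0.370). Slfn1 and Slfn4 had at most 2 reads in several of the conditions. There the prior count of 2 largely set their means, so every r of these 2 genes depends on that floor.

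Genes of interferon production, sensing and feedback were read from a list of 18. After 1 h 5 were called higher (5.04% of all genes tested) and after 4 h 12 (11.4%). After 12 h the number was 10 (8.87%) and after 24 h 9 (7.93%). None was called lower by edgeR at these times, against 2.08, 11.4, 8.42 and 6.93% of all genes tested. Ifnb1, with 0 control reads, and Socs3, with 4, could not have been called lower. Irf1 (an interferon regulatory factor), Jak2 (a receptor-associated kinase) and Socs3 (a feedback inhibitor) were among those called at all 4 times. At 4 h Irf1 rose by 5.62 ± 0.11 and Jak2 by 4.57 ± 0.11 on the log2 scale, and Socs3 by 9.76 ± 0.22 from 4 control reads. The median log2 change of the list was 3.34 at 4 h. With IL-4 and with IL-13, 3 of the 15 tested were called higher, against 2.22 and 2.98% of all genes. In RAW264.7 cells given LPS 3 of 16 were called higher, against 2.39%, and 8 of 18 had a change called smaller than in BMDMs, against 4.88%.

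Within the same stretch of chromosome 11, the pseudogene Slfn10-ps was not called at 4 h, when all 7 members were. It was at 22.6, 22.6 and 27.9 CPM in control BMDMs and at 9.98, 16.1 and 16.9 CPM at 4 h (log2 change -0.22 ± 0.23, adjusted p = 0.40, edgeR), and at 49.6, 44.0 and 43.3 CPM at 12 h (1.21 ± 0.18, below the size asked for). From 4 to 12 h its log2 change was 1.43 ± 0.20 (adjusted p = 4.8e-08, edgeR), also below that size, beside 1.20 for Slfn1 and 3.76 for Slfn4. In RAW264.7 cells it went from 5.97 and 9.36 CPM to 26.9 and 34.3 CPM with LPS (2.18 ± 0.27, adjusted p = 5.4e-15) and was called higher, as were Slfn2, Slfn4 and Slfn5. Slfn14 had 1 read in all libraries together, and Slfnl1, on chromosome 4, was at most at 0.918 CPM. Of the 8 protein-coding genes nearest the cluster, 4 on each side, 4 had enough reads to test in the time course. None was called against control at any of the 4 times. Of all genes tested, 5.04 to 11.4% were called higher at these times and 2.08 to 11.4% lower. With 4 genes tested, 0 calls do not set the neighbours apart from these shares. At 4 h their log2 changes ran from -0.75 ± 0.31 for Rad51d to 0.48 ± 0.13 for Ap2b1, with Nle1 at 0.06 ± 0.58. The change of Ap2b1 had an adjusted p of 0.0011 (edgeR) and was below the size asked for.

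**Figure D4:**
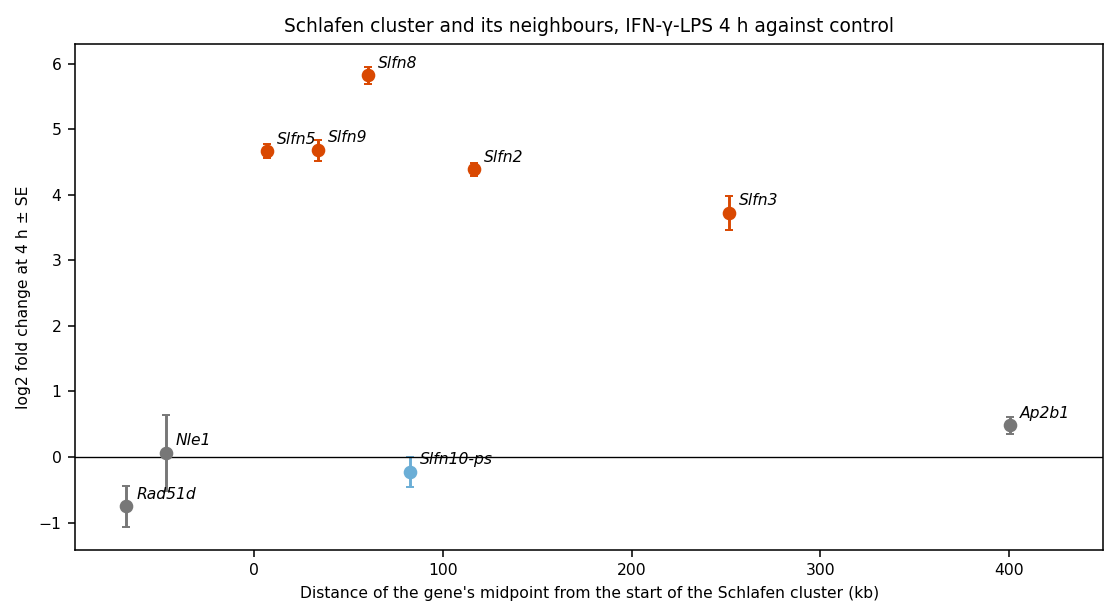
Log2 fold change at 4 h of IFN-γ-LPS against control (edgeR; bars are SE) by distance of each gene's midpoint from the start of the cluster, in kb. The 5 members shown (orange) lay between 3.72 and 5.82, Slfn10-ps (blue) at -0.22 and the 3 neighbours shown (grey) between -0.75 and 0.48; Slfn1 and Slfn4, with at most 2 control reads, are left out.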

How the data were processed

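RNA-seq libraries (rRNA removed, directional kit, random primers) were made from 25 samples. Per the labels and the submitters' processing notes, the authors used CASAVA 1.8.2, Trimmomatic 0.33 and STAR 2.5.1 on mm10; the annotation release is not given in the sources used here. The deposited values were raw counts of uniquely mapped reads per gene, unnormalized; the sense-strand column was used. Rows for unassigned reads and Rn45s stayed out of totals and tests. CPM is per total without Rn45s. Reads without a feature on the sense strand made up 62.7 to 69.1% of that column's reads. Differences were tested with edgeR 4.0.16 (R 4.3.3; TMM, filterByExpr, robust quasi-likelihood) with Benjamini-Hochberg adjustment over all genes tested: the time course in 15 samples, IL-4 and IL-13 in 9, RAW264.7 LPS in 4 and the comparisons across these sets in all 25. DESeq2 1.42.0 was an alternative. The code was tested on simulated data. Likeness to other genes was Pearson's r of the mean log2 CPM (prior count 2) over the 9 conditions, among genes with a mean of at least 5 CPM in a condition; the 3 highest were named. The members, gene lists and neighbours were chosen with earlier results of these data known. Named genes were all members, the 3 most alike genes, list genes called at all 4 times, and the neighbours tested. Some genes that this rule names are not reported here. Intervals and limits cover counting error only, and p-values measure the spread between these samples. BMDMs given LPS alone were not analysed here.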

Additional observations from a re-analysis of the deposited data

Results flagged for a closer look

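The 4 h change was compared between the cell kinds in a direct test (RAW264.7 LPS change minus BMDM IFN-γ-LPS change, log2, edgeR). Of 6 members with a fold, 6 had an unadjusted p under 0.05, beside 4346 of the 10612 genes tested. Adjusted p was at most 0.01, with no size asked for, for 5 of them. The same count over all genes was not taken. The difference was -1.13 for Slfn2, -4.27 for Slfn3, -2.35 for Slfn5, -4.30 for Slfn8 and -5.77 for Slfn9. All but Slfn2 passed the size asked for above. Stimulus and cells cannot be told apart in this comparison.

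The number of reads in the antisense direction of some members was above that of every control library. This rule takes read numbers, and the sense reads of these genes rose as well. Over the 3 libraries of a group, Slfn2 had 15 at 1 h, 19 at 4 h and 27 at 12 h, Slfn4 had 6 at 12 h, Slfn5 had 39 at 4 h and 34 at 12 h, and Slfn8 had 12 at 4 h and 7 at 12 h. Among these, the share of the gene's reads ran up to 0.495% (exact 95% interval 0.343 to 0.691%) for Slfn5 at 12 h. The control intervals held every such share, so a gain in antisense share was not shown. They were 0 to 0.628% for Slfn2, 0 to 84.2% for Slfn4, 0.00470 to 1.03% for Slfn5 and 0 to 4.25% for Slfn8. At 24 h Slfn2 had 2 such reads. Slfn5 has the antisense neighbour Slfn5os, whose part in the antisense reads of Slfn5 was not tested. The antisense share of Rn45s moved with these counts: it was 0.0386 to 0.0543% in the control libraries, 0.0827 to 0.122% at 12 h and 0.0104 to 0.0162% at 24 h, and its part in the result was not tested. Over all genes without Rn45s, antisense reads made up 1.02 to 1.41% of counts in a library.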

How the results depend on the processing

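Apart from replicates left out, 757 log2 changes of members kept their direction and their side of the threshold, 2 passed it newly, 4 no longer passed it and 2 changed sign. The count called higher at 1 h was 1 instead of 2 with DESeq2, and 1 to 2 when a replicate was left out. It was also 1 with only the groups compared in the fit, where 5 members were tested. Asking for at least 10 counts in every sample gave 1 as well. The filter at 10 counts in every sample left 4 members to test, and the count called higher became 4 at 4, 12 and 24 h and at 12 h against IL-4 and against IL-13, 3 from 1 to 4 h, 0 from 4 to 12 h and 0 for RAW264.7 against BMDM controls; here fewer members were tested. Without TMM, 0 members were called lower from 4 to 12 h. The count called higher in RAW264.7 against BMDM controls was 1 to 2 when a replicate was left out. Between IL-13 and IL-4, the log2 difference of Slfn8 was -0.0078, and it was 0.028 without TMM and 0.00093 with Rn45s kept; the cause was not tested. With a replicate left out, it ran from -0.19 to 0.19, and that of Slfn2 from -0.036 to 0.079. Likewise, at 1 h Slfn5 ran from -0.094 to 0.020 and Slfn9 from -0.40 to 0.11, and Slfn8 ran from -0.34 to 0.052 with IL-4 and from -0.29 to 0.031 with IL-13. Replicate numbers were names only: deviations of samples sharing a number correlated at 0.020 on average over 30 pairs of the time course, 2 of them above 0.1. With the replicate block the counts of members called were as without it, with 2 higher at 1 h and 7 at 4 h. Levels from unstranded counts were 0.946 to 1.02 times those reported, with Rn45s in the total 0.606 to 0.787 times, and with TMM 0.764 to 1.36 times. Slfn1 and Slfn4 rest on 1 and 2 control reads, and the RAW264.7 groups on 2 libraries each.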
